A study of Mus musculus with 8 samples.

Results

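Cadherins are calcium-dependent adhesion proteins that join like cells through repeated extracellular domains. In mouse, the family followed here held the genes whose symbol is Cdh with a number or begins with Pcdh (protocadherin), taken from the accession printed for each array probe and a RefSeq gene table. That table listed 93 such genes, 69 of them had at least 1 non-control probe on the array, out of 20660 genes named in all, and these 69 are the members described. They had 87 probes together. Where a gene had several, which was so for 11 genes, the probe with the highest mean level over the 8 arrays was used. The 24 members with no named probe were 16 gamma and 7 alpha clustered protocadherins and Pcdh11x, and they were not analysed here.

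Classical cadherins, divided into type I and type II, bind their own kind on the neighbouring cell and hold on to the actin cytoskeleton inside through beta-catenin, alpha-catenin and p120-catenin. Clustered protocadherins lie side by side in the alpha, beta and gamma clusters, and each neuron switches on its own small mixture from alternative promoters, chosen by DNA methylation, CTCF and cohesin, so that its branches can recognise themselves. The non-clustered delta protocadherins signal to actin through the WAVE complex and through phosphatase and kinase partners, and many are known for patterned expression in the developing nervous system.

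The cells were primary spheres from the superior mesenteric ganglion, a sympathetic ganglion of the abdomen, of 3-week-old mice of strain background 129+Ter/SvJcl, all hemizygous for TH-MYCN (TH-MYCN+/-), in which the tyrosine hydroxylase promoter drives human MYCN. Dissociated cells of each ganglion were divided between RA (-) medium, which lacks retinoic acid (RA), and RA (+) medium, which contains it, and were grown for 8 days. Every animal carried the transgene, and a culture without it was not analysed here. There were 4 RA (-) and 4 RA (+) samples, paired by animal, each on its own 1-colour Agilent array with 40 or 200 ng of total RNA of integrity number over 8.

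Between 48.5% and 55% of non-control spots were well above background on the RA (-) arrays, and between 52.7% and 55.3% on the RA (+) arrays, against a median local background of 26 to 29 intensity units. The labelled tissue was checked by marker genes. The sympathetic neuroblast markers Phox2a, Hand2, Gata3, Th, Dbh and Isl1 were well above background on all arrays, and the summed level of these 6 was 375 to 431 times the 75th percentile on RA (-) arrays and 305 to 392 times it on RA (+) arrays. Singly they moved both ways: in RA (-) spheres Th (3.59 on the log2 scale) and Isl1 (2.00) were called higher. Dbh (−1.54) and Hand2 (−0.39) were called lower, and Phox2a (−0.60) and Gata3 (0.08) were not called. The Schwann and satellite glia markers Sox10, S100b, Erbb3, Foxd3 and Fabp7 summed to 2.35 to 3.22 in RA (-) and 4.66 to 5.43 in RA (+) spheres, with Erbb3 never well above background. For fibroblasts (6 markers) the sums were 0.3 to 0.415 in RA (-) and 0.35 to 0.736 in RA (+), for endothelium (4) 7.97 to 9.5 in RA (-) and 8.09 to 10.1 in RA (+), and for immune cells (4) 1.61 to 1.98 in RA (-) and 1.47 to 2.59 in RA (+). For epithelium (4) they were 0.163 to 0.245 in RA (-) and 0.105 to 0.712 in RA (+), and for adrenal cortex (5) 0.459 to 0.556 in RA (-) and 0.406 to 0.507 in RA (+). Tek, Emcn, Ptprc, Epcam, Krt8, Pdgfra, Lum, Cyp11a1, Cyp11b1 and Hsd3b1 were well above background on no array. A sum of signals follows its brightest probe, so single markers moved where sums overlapped. The macrophage genes Adgre1 (−2.26 on the log2 scale) and Aif1 (−2.58) and the fibroblast gene Dcn (−1.72) were called lower. They were well above background on none of the RA (-) arrays, against all 4 RA (+) arrays. Their estimates therefore have only bounds, set as explained below: at least 1.44-fold lower for Adgre1, 1.49-fold for Aif1 and 1.64-fold for Dcn. Col3a1 (−0.74), Pecam1 (−0.34) and Fabp7 (−0.99) were also called lower and Star (0.73) higher, while Csf1r (0.02), Kdr (−0.02), Col1a1 (−0.28) and Krt18 (0.22), detected on all 8 arrays, were not called. The part that other cells had in the results below was not tested, and in these bulk samples fewer cells of a type cannot be told apart from less RNA per cell.

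Without RA, 54.3% of the tested members were called lower, and a few were higher. Of the 69 members, 52 were well above background on at least 1 array, 38 on all 8 and 17 on none. A total of 46 passed the filter for testing, which asked for a spot well above background on 4 or more arrays, and 25 of these were called lower in RA (-) spheres and 4 higher, at an adjusted p under 0.05 by limma with the animal as a block. Among all 13539 genes tested, 64.3% were called, 28.4% lower and 35.9% higher. Members were called as often as genes in general, 63%, but 54.3% of the tested members were called lower and 8.7% higher. Their median change was −0.45 on the log2 scale, RA (-) minus RA (+), against 0.07 for all tested genes. The 4 higher members were Cdh4, Pcdh17, Cdh6 and Pcdh1, and the lower ones included the protocadherins Pcdh7, Pcdh8 and Pcdhac2, 16 beta protocadherins and the cadherins Cdh15, Cdh22 and Cdh13. Pcdh7 and Pcdhb11, both called lower, passed the filter only through their RA (+) arrays. The RA (-) and RA (+) values did not overlap for 17 of the 46, beside 53.1% of all genes. A change of at least 1 was called lower for 7 members and higher for 2, beside 10.7% and 7.5% of all genes. Under spike-in scaling, which moved the median change of all genes to 0.23, 12 members were called lower (26.1% of those tested, beside 14.3% of all genes) and 2 higher. The median member lay 0.52 below the median of all genes, a gap that, by arithmetic alone, a constant added to each array cannot move. The median of members minus that of all genes was −0.25 with normexp and quantile normalization. It was −0.33 with no filter on dim probes.

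**Figure D1:**
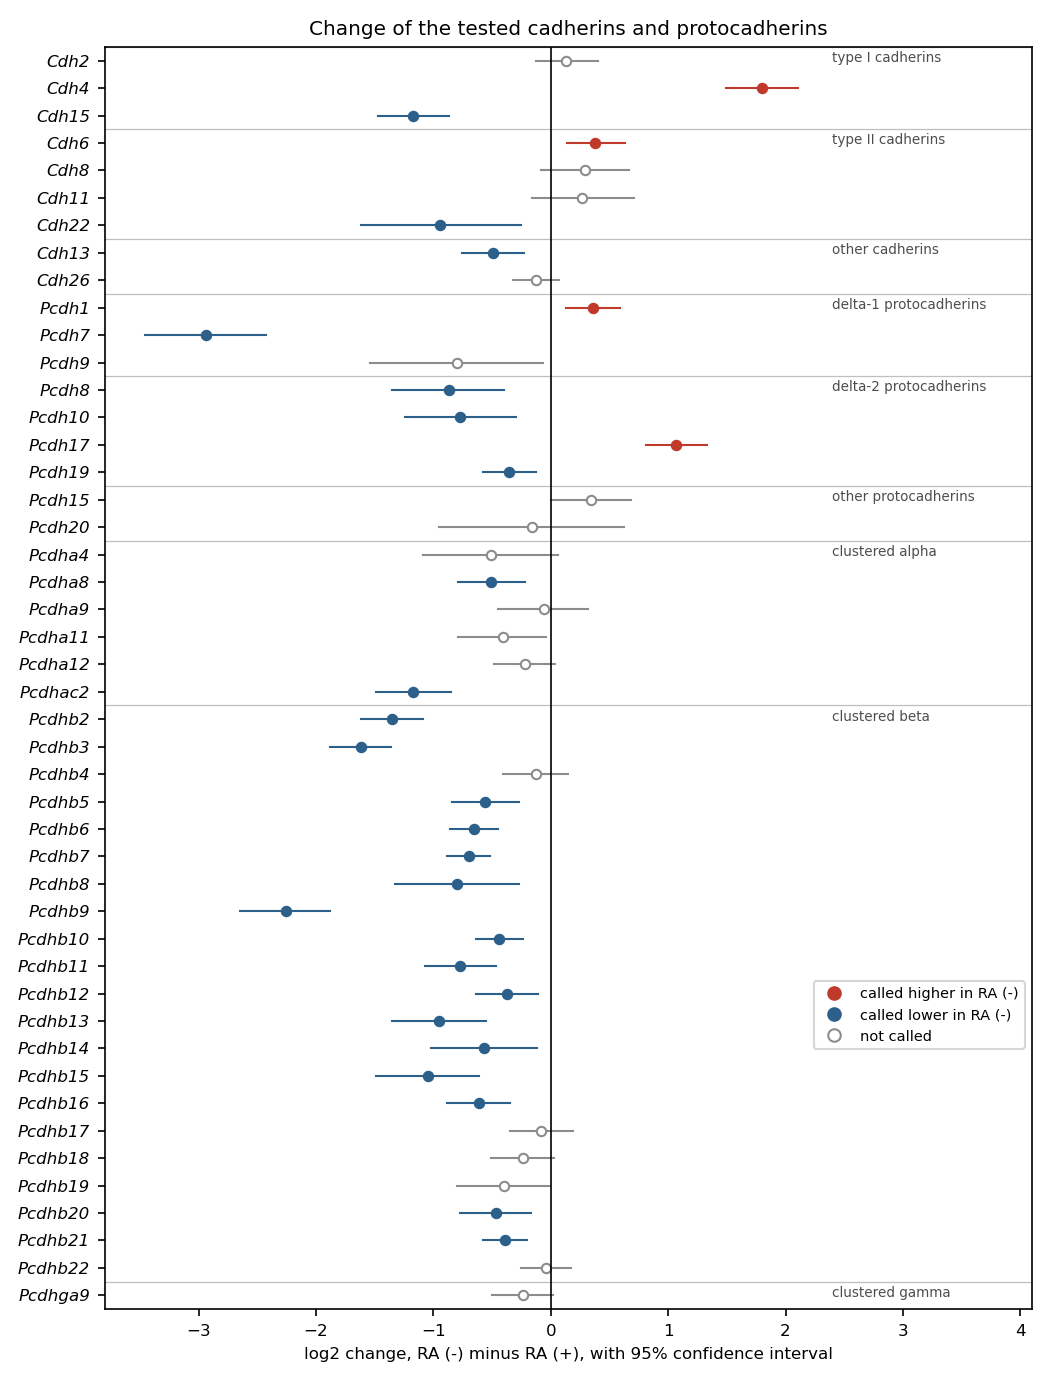
Log2 change in RA (-) against RA (+) spheres (horizontal axis) of the 46 tested members, grouped by subfamily, with points for estimates and lines for 95% confidence intervals over 4 animals. Filled red points are called higher (4), filled blue points called lower (25) and open points not called (17). Every clustered protocadherin estimate lies left of 0, beside 6118 of all 13539 genes. Under spike-in scaling 24 of 28 did, beside 4760 of all genes, and 25 of 28 did without animal 2, beside 6194.

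Among type I classical cadherins, Cdh4 (R-cadherin), which can also bind N-cadherin, stood higher without RA. Its level, the log2 signal relative to the array's 75th percentile, was 0.17, −0.48, −0.45 and −0.24 in the RA (-) spheres of animals 1 to 4, against −1.56, −1.93, −2.62 and −2.09 in their RA (+) spheres. Every RA (-) value lay above every RA (+) value. Cdh4 was 3.48-fold higher (log2 change 1.80, SE 0.13, limma adjusted p = 0.000172), and its change ranged from 1.45 to 2.17 over the animals. A second Cdh4 probe gave 1.48 (SE 0.13), and the remaining probe stayed near background throughout.

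Cdh15 (M-cadherin), known from myoblasts and also present in cerebellum, went the other way. It had levels of −1.15, −1.11, −1.68 and −1.64 in RA (-) spheres, against 0.07, −0.35, −0.33 and −0.27 in RA (+) spheres, so that all RA (-) values were below all RA (+) values. The change was −1.17 (SE 0.12, 2.25-fold, limma adjusted p = 0.000555). The 250 bases before its annotated start, RefSeq, GRCm38.p6, chr8:122848124-122848373, plus strand, are given because they were the only ones among 25 member promoters to hold the E-box CACGTG, the motif bound by MYC family proteins. Its match is in capitals.
Cdh15: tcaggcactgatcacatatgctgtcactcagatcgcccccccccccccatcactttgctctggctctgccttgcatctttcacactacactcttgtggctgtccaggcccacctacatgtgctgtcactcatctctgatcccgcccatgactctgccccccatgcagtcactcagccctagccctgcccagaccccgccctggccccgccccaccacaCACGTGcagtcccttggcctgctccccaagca

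Cdh2 (N-cadherin), the classical cadherin of neural tissue, did not differ detectably. Levels of 5.09, 4.95, 4.56 and 4.74 in RA (-) spheres overlapped with 4.74, 4.82, 4.74 and 4.51 in RA (+) spheres. Its change was 0.13 with a 95% interval of −0.13 to 0.40 (limma adjusted p = 0.311), its second probe gave 0.11, and with normexp and quantile normalization the value was −0.15. Cdh1 (E-cadherin) and Cdh3 (P-cadherin), the classical cadherins of epithelia, stayed near background throughout (no array well above it). Of the 4 epithelial markers, Epcam and Krt8 were at background too, Cldn4 was well above it on 1 RA (+) array and Krt18 on all 8 arrays.

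**Figure D2:**
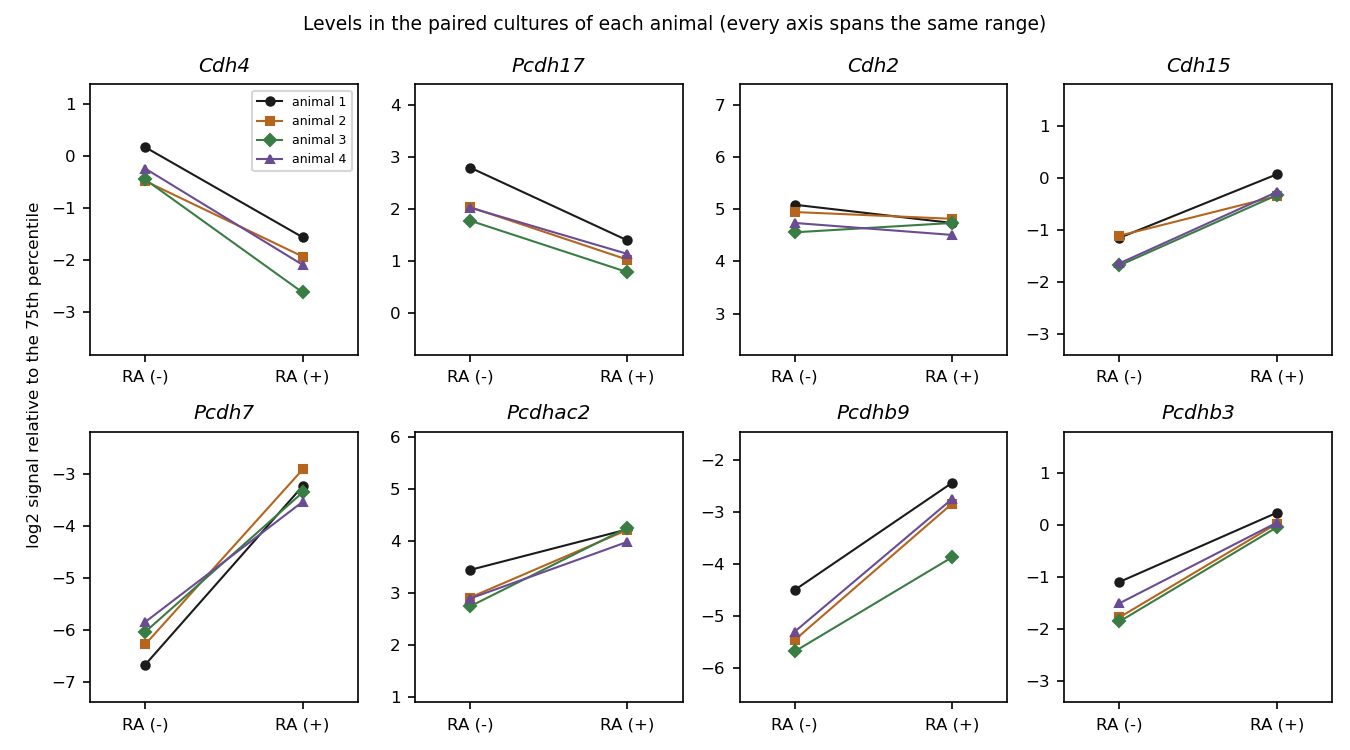
Log2 level relative to the array's 75th percentile (vertical axis) of 8 members in RA (-) and RA (+) spheres, each line joining the cultures of 1 animal. Cdh4 and Pcdh17 were higher and Cdh15, Pcdh7, Pcdhac2, Pcdhb9 and Pcdhb3 lower in RA (-) spheres of all 4 animals, while the Cdh2 lines cross; levels of different genes come from different probes and are not comparable.

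Of 13 type II cadherins on the array, 4 were tested. Cdh6, found in kidney and in neural crest, had levels of −1.42, −1.49, −1.93 and −2.11 in RA (-) spheres, against −1.79, −2.10, −2.36 and −2.23 in RA (+) spheres. It was higher in every animal although the groups overlapped, with a change of 0.38 (SE 0.10, limma adjusted p = 0.0174), and 6 of the 14 alternative analyses lost the call, including the one without the animal block (adjusted p = 0.1). Cdh22, a cadherin of brain and pituitary, had levels of −0.74, −2.11, −3.09 and −1.53 in RA (-) and −0.76, −1.20, −1.31 and −0.46 in RA (+) spheres. It was nearly level in animal 1 and lower in the other 3, for a change of −0.94 (SE 0.28, limma adjusted p = 0.0281). That call was lost without any of animals 2, 3 and 4, at −0.94, −0.65 and −0.89, and without the animal block (adjusted p = 0.0953). Cdh11 (OB-cadherin), known from mesenchymal cells, had an estimated change of 0.27 (95% interval −0.16 to 0.71) and was not called; without animal 3 it was, at 0.48. Cdh8, which marks particular neurons in the brain, was not called either, at 0.29. Cdh5 (VE-cadherin), which seals endothelial junctions, was at background throughout by the same flag, as were Cdh7, Cdh9, Cdh10, Cdh18 and Cdh20.

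Among the remaining cadherins, Cdh13 (T-cadherin), which is tied to the membrane by a lipid anchor and lacks a catenin-binding tail, was lower. Levels of 0.04, −0.55, −0.92 and −0.96 in RA (-) spheres stood against 0.30, 0.19, −0.61 and −0.30 in RA (+) spheres. The groups overlapped, but each animal was lower without RA, and the change was −0.49 (SE 0.11, limma adjusted p = 0.00919). Without the animal block the same −0.49 was not called (adjusted p = 0.138), and under spike-in scaling the value was −0.33 (adjusted p = 0.335). Cdh26 was not called, with a change of −0.13 and an interval of −0.32 to 0.07. Cdh23, which forms the tip link of hair cells together with Pcdh15, was well above background on no array. Cdh16 and Cdh17, cadherins of kidney and intestine, were not either.

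The non-clustered protocadherins moved in both directions. Of 9 tested, 2 were called higher (22.2%, beside 35.9% of all genes) and 4 lower (44.4%, beside 28.4%). Pcdh7, a delta-1 protocadherin first described in Xenopus ectoderm, was lower. Its levels were −6.66, −6.27, −6.03 and −5.84 in RA (-) spheres, none of them well above background, against −3.23, −2.91, −3.35 and −3.53 in RA (+) spheres, all well above background. The estimate of −2.94 (SE 0.21, limma adjusted p = 0.000172) therefore has only a bound. By the analysis as reported Pcdh7 was at least 2.04-fold lower, taking for each RA (-) array the lowest signal detected there. With normexp and quantile normalization the change was −0.46, smaller than this bound, and still called. The other 2 Pcdh7 probes did not pass the filter.

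The upstream 250 bases of Pcdh7 are printed because they held 2 matches to the RA receptor half-site. Half-sites were sought on both strands as AGGTCA and as AGTTCA, each also with G as the first letter. The stretch is from RefSeq, GRCm38.p6, chr5:57717831-57718080, plus strand, with matches in capitals.
Pcdh7: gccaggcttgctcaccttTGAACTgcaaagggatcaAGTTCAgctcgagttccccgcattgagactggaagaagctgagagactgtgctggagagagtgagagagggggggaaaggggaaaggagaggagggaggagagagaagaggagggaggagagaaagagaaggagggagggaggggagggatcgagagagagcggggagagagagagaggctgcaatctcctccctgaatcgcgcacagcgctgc

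Promoters were matched in the RefSeq table for 22 members outside the protocadherin clusters, 25 promoters in all. Cdh4, Cdh11, Cdh13 and 6 other members had no entry. Cdh2, Pcdh1 and Pcdh12, which also lie outside the clusters, were left out of this search. Half-sites occurred in 9 of the 25, beside 38.6% of 32851 promoters of the same length. None held 2 half-sites as a direct repeat with a spacing of 1, 2 or 5 bases, which 0.164%, 0.174% and 0.0883% of all promoters did. CACGTG occurred in 1 of the 25, beside 6.02% of all, and the E-box CACCTG, bound by Snail and Zeb factors, in 3, beside 17.2%. These matches describe letters only, and binding was not measured.

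Pcdh17, a delta-2 protocadherin known from presynaptic sites and from axon bundles that it helps to extend along each other, was higher. It had levels of 2.80, 2.04, 1.78 and 2.03 in RA (-) spheres, against 1.40, 1.03, 0.79 and 1.14 in RA (+) spheres. No values overlapped, and the change was 1.07 (SE 0.10, 2.1-fold, limma adjusted p = 0.000461). Its upstream stretch is shown as that of the higher member with the most change among those with an entry. It is RefSeq, GRCm38.p6, chr14:84443313-84443562, plus strand, and none of the motifs above was found, so that it has no capitals.
Pcdh17: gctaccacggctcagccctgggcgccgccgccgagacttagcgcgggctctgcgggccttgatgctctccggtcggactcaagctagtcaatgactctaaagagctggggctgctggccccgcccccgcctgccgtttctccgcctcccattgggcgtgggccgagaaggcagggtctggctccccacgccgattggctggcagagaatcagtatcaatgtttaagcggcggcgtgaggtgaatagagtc

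Of the other delta-2 members, Pcdh8 and Pcdh19 were lower. Pcdh8 (arcadlin), which is induced by synaptic activity and draws N-cadherin into the cell, had levels of −3.36, −3.73, −3.63 and −3.56 in RA (-) spheres, against −3.16, −2.93, −2.31 and −2.40 in RA (+) spheres. The groups did not overlap, and the change of −0.87 (SE 0.19, limma adjusted p = 0.00946) was −0.26 with normexp and quantile normalization. Pcdh19, an X-linked protocadherin that can pair with N-cadherin, had −0.50, −0.37, −0.33 and −0.44 in RA (-), against 0.04, −0.12, −0.17 and 0.04 in RA (+) spheres. Its change was small and without overlap, −0.36 (SE 0.09, limma adjusted p = 0.0168), and was not called without animal 1 (−0.30) or animal 4 (−0.31) or under spike-in scaling (−0.19). Pcdh10, which binds the WAVE component Nap1, fell by 0.77 (SE 0.19) by its brighter probe, but another probe, matched to a different transcript accession, gave 0.03 (adjusted p = 0.888), so its direction depends on the probe. Pcdh18 was well above background on no array.

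In the delta-1 group, Pcdh1, an epithelial and neural protocadherin, had levels of 0.86, 0.52, 0.46 and 0.74 in RA (-) and 0.47, 0.12, 0.35 and 0.19 in RA (+) spheres. It was higher in all 4 animals although the groups overlapped narrowly, by 0.36 (SE 0.09, limma adjusted p = 0.0172), and lost the call without animal 1, 2 or 4, at 0.35, 0.35 and 0.30. Pcdh9 was not called, with a change of −0.80 and a 95% interval of −1.54 to −0.07 (limma adjusted p = 0.057); without animal 1 it was called at −1.10. Pcdh15 and Pcdh20 were not called. Pcdh15 had 6 probes, 2 of which passed the filter, and these pointed opposite ways, 0.34 and −0.29, with adjusted p = 0.0741 for the first and 0.0385 for the second.

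Of 58 clustered protocadherins in the reference, 35 had a probe and 28 were tested. Of these, 18 were called lower (64.3%, beside 28.4% of all genes) and none higher (beside 35.9%), 16 of the 18 in the beta cluster. By limma, all 28 estimates were below 0, beside 6118 of all 13539 genes. Under spike-in scaling 24 of 28 were, beside 4760 of all genes, and 25 of 28 were without animal 2, beside 6194. Their median change was −0.51, which was 0.58 below the median of all genes. It was −0.35 under spike-in scaling, where 7 were called lower (25%, beside 14.3% of all genes). With normexp and quantile normalization it was −0.30, with 18 called lower (64.3%, beside 33.4% of all genes). With no filter on dim probes, 29 of 35 clustered genes were below 0, beside 7860 of all 20641 genes. Of these 35, 16 were called lower (45.7%, beside 17.2% of all genes) and 1 higher (beside 4820 of all genes). The 6 gamma genes then had a median change of 0.58, beside 0.17 for all genes. Pcdhga9 aside, they were too dim to pass the filter, so this value rests largely on signal near background. These paralogues lie in tandem and are similar in sequence, alpha and gamma transcripts share their last exons, and cross-hybridisation between members was not tested, so the 28 probes are not independent readings. Where in the transcript each probe lies was not analysed here.

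**Figure D3:**
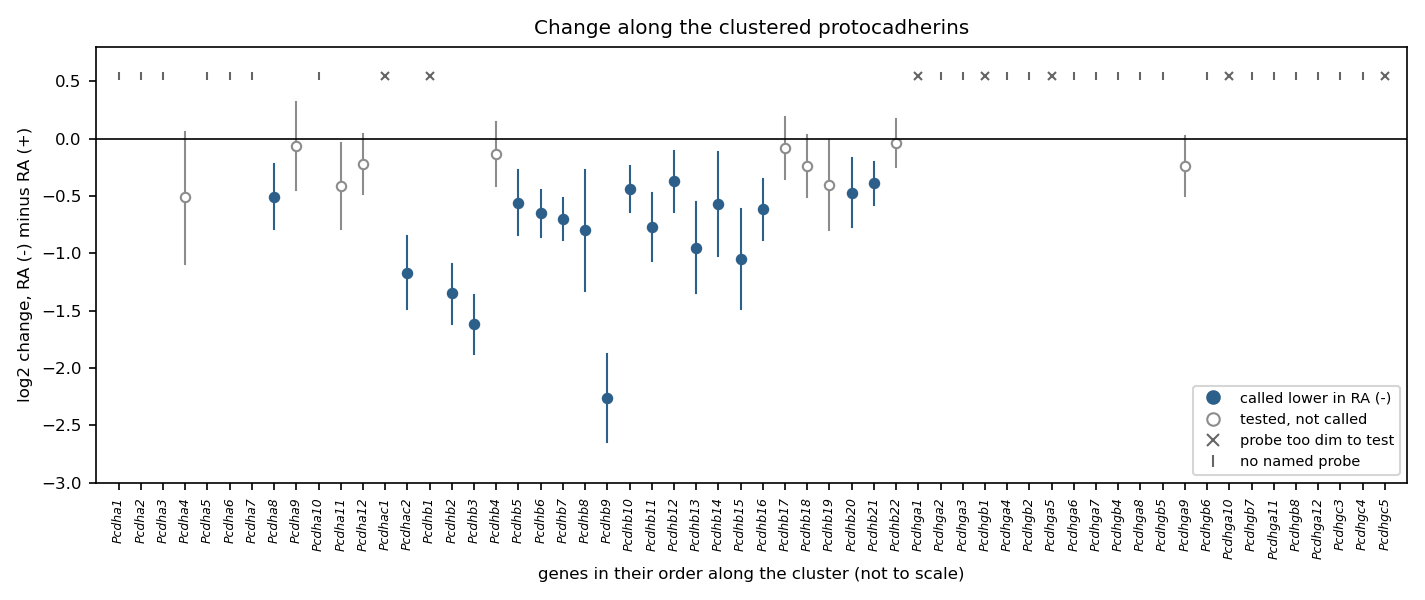
Log2 change in RA (-) against RA (+) spheres (vertical axis, lines 95% confidence intervals over 4 animals) of the clustered protocadherins in gene order from alpha through beta to gamma. Filled points are the 18 members called lower (64.3% of those tested, beside 28.4% of all genes) and open points the 10 not called. Marks along the top show genes whose probe was too dim to test or that had no named probe, which leaves 1 tested gamma gene.

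The beta cluster, in which each gene is a single large exon with its own promoter, was covered best, with all 22 genes on the array and 21 tested. In RA (-) spheres 16 were called lower, 76.2% of those tested beside 28.4% of all genes, with a median change of −0.57. Under spike-in scaling 6 were called lower, 28.6% beside 14.3% of all genes. The groups did not overlap for 10 of the 21, beside 23.9% of all genes with RA (-) entirely lower. Pcdhb1 was well above background on no array. Of the 16 called lower, Pcdhb11 passed the filter only through its RA (+) arrays, and Pcdhb9 was well above background on only 1 RA (-) array.

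Pcdhb9 was lower, by an amount that the dim RA (-) spots leave uncertain. Its levels were −4.50, −5.46, −5.68 and −5.30 in RA (-) spheres, where only 1 array was well above background, against −2.44, −2.84, −3.87 and −2.75 in RA (+) spheres. The groups were far apart, with a change of −2.26 (SE 0.16, limma adjusted p = 0.000162) that shrank to −0.55 with normexp and quantile normalization. Pcdhb3 was measured well above background everywhere. It had −1.10, −1.78, −1.86 and −1.51 in RA (-) spheres, against 0.23, 0.02, −0.05 and 0.04 in RA (+) spheres. All RA (-) values were lower, by 3.08-fold (−1.62, SE 0.11, limma adjusted p = 0.000144), and the change was −1.12 with normexp and quantile normalization.

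Its neighbour Pcdhb2 had −2.0, −2.27, −2.62 and −2.49 in RA (-) spheres, against −0.64, −1.03, −0.95 and −1.36 in RA (+) spheres. These did not overlap either, at −1.35 (SE 0.11, 2.55-fold, limma adjusted p = 0.000243). Pcdhb15 and Pcdhb13 changed by −1.05 (SE 0.18) and −0.95 (SE 0.16), or by −0.56 and −0.26 with normexp and quantile normalization. The first was −1.71, −2.48, −2.40 and −2.28 in RA (-) and −1.09, −1.77, −0.85 and −0.95 in RA (+) spheres, and its groups overlapped through animals 1 and 2. The second was −2.97, −4.05, −3.66 and −3.36 in RA (-) and −2.46, −2.57, −2.79 and −2.40 in RA (+) spheres, without overlap.

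No RA (-) array held Pcdhb11 well above background. By the analysis as reported it was at least 1.4-fold lower (change −0.77, limma adjusted p = 0.00265). Normexp with quantile normalization gave −0.13, smaller in size than this bound and not called. Pcdhb8, at −0.80, was lost without the animal block (adjusted p = 0.0637) and without animal 4. The remaining called beta members, Pcdhb5, Pcdhb6, Pcdhb7, Pcdhb10, Pcdhb12, Pcdhb14, Pcdhb16, Pcdhb20 and Pcdhb21, changed by −0.70 to −0.37. The brightest of these probes by signal, Pcdhb21, had 2.04, 1.92, 1.69 and 1.84 in RA (-) spheres, against 2.29, 2.27, 2.22 and 2.24 in RA (+) spheres. This small difference of −0.39 (SE 0.08, limma adjusted p = 0.00634) was without overlap, and under spike-in scaling it was −0.23 (adjusted p = 0.529). All 9 of these members lost their call under spike-in scaling. The 5 beta members not called were Pcdhb4, Pcdhb17, Pcdhb18, Pcdhb19 and Pcdhb22, at −0.40 to −0.04. Toward the gamma end of the cluster the changes were smaller in size: across the 21 beta genes, the rank along the cluster and the change had a Spearman rho of 0.53 and a Pearson r of 0.48. The mean signal and the change had a rho of 0.37 and an r of 0.40. Both are descriptions over paralogous probes read on the same arrays.

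Of 7 alpha genes with a probe, 6 were tested and 2 were called lower, 33.3% beside 28.4% of all genes. Pcdhac2, a C-type isoform that serotonergic neurons need to spread their axons evenly, had levels of 3.44, 2.91, 2.74 and 2.89 in RA (-) spheres, against 4.22, 4.21, 4.25 and 3.98 in RA (+) spheres. It was lower in every animal without overlap, by 2.25-fold (−1.17, SE 0.13, limma adjusted p = 0.000724), and a second probe gave −1.33 (SE 0.09). Pcdha8 changed by −0.51 (SE 0.12, limma adjusted p = 0.011), with 1.99, 1.20, 1.19 and 1.64 in RA (-) and 2.12, 1.92, 1.84 and 2.17 in RA (+) spheres. Its groups overlapped, its second probe gave −0.34 and was not called (adjusted p = 0.165), and spike-in scaling also lost it at −0.34.

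Pcdha4, Pcdha9, Pcdha11 and Pcdha12 were not called, at −0.51 to −0.06, although Pcdha4 was called at −0.81 without animal 1. Between the 4 animals, with the medium taken into account, 0 of 46 members differed at a limma adjusted p under 0.05, beside 0.0443% of all genes, and 17 of 46 did at an unadjusted p under 0.05, beside 16.4%. The single tested gamma gene, Pcdhga9, had 4.41, 3.72, 3.53 and 3.71 in RA (-) and 4.42, 4.04, 4.04 and 3.81 in RA (+) spheres. It was not called at −0.24 (95% interval −0.50 to 0.02), and its second probe gave 0.16. Quantile normalization called it lower at −0.41, normexp with quantile normalization at −0.46 and the 75th percentile of detected probes at −0.35. An intensity trend in the error model also called it, at −0.24, and spike-in scaling did not, at −0.08. The gamma members Pcdhga1, Pcdhga5 and Pcdhgc5 were well above background on 1 to 3 arrays and were not tested. Pcdhga1, well above background on 2 RA (-) arrays and 1 RA (+) array, had a higher level in the RA (-) spheres of all 4 animals.

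**Figure D4:**
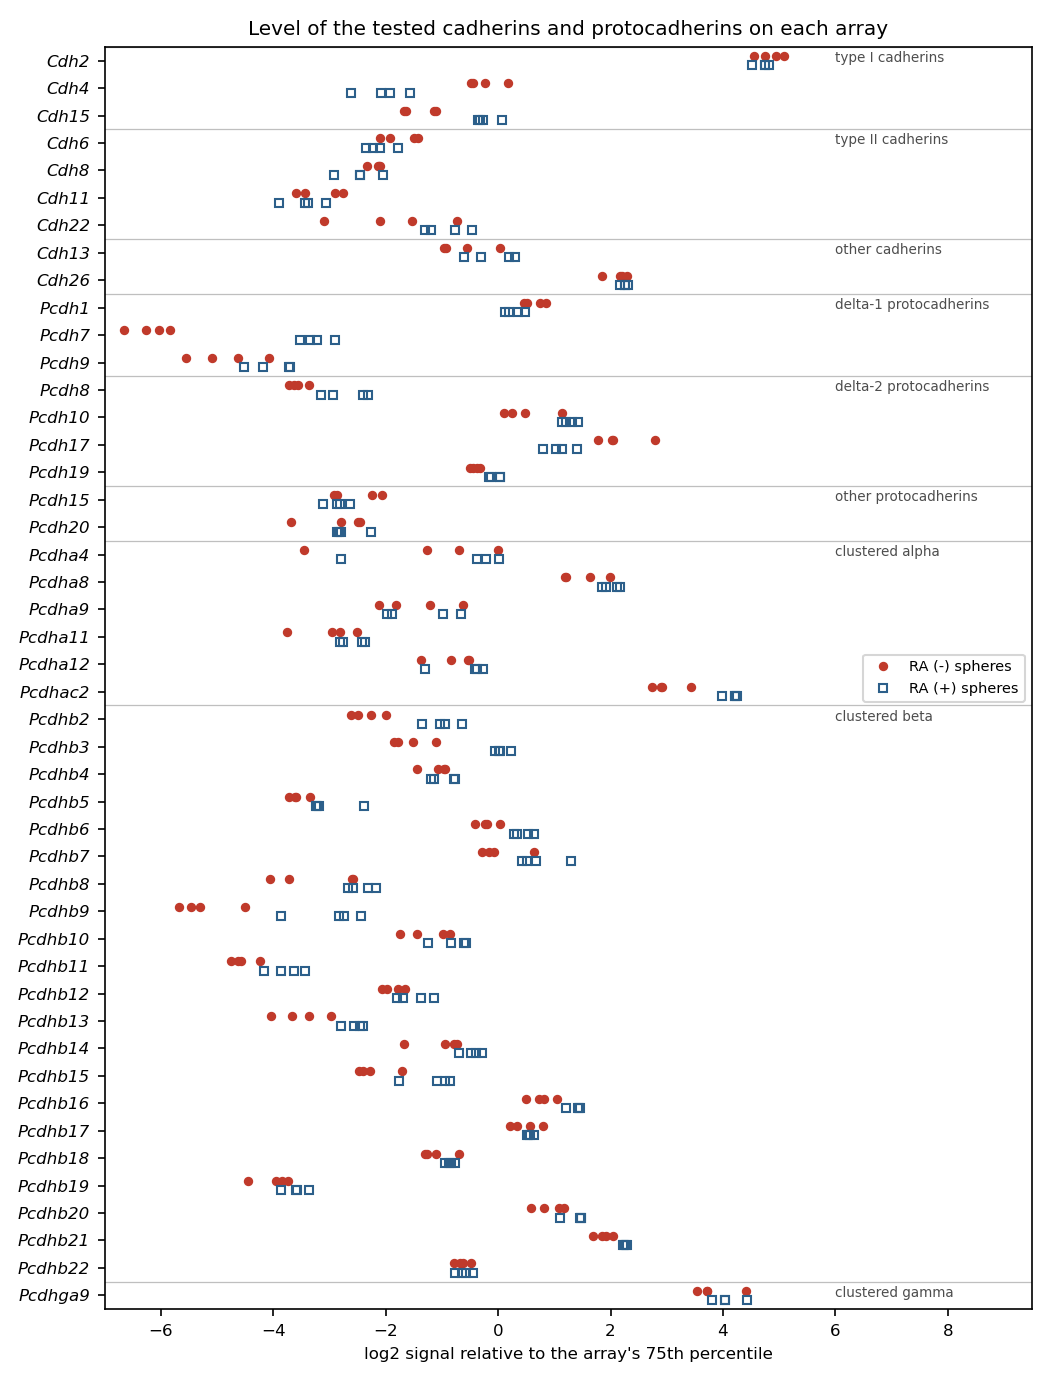
Level of each tested member on each array (horizontal axis, log2 signal relative to the array's 75th percentile), with filled red circles for the 4 RA (-) samples above open blue squares for the 4 RA (+) samples. For 11 of the 28 tested clustered protocadherins every red point lies left of every blue one, beside 23.9% of all genes. For Cdh4 and Pcdh17 every red point lies right, beside 29.2% of all genes. Levels should be read within a row, since each row is a different probe.

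The genes that work with cadherins were followed as 7 lists, to be read beside the 64.3% of all genes that were called, 35.9% higher and 28.4% lower. Catenins and other armadillo partners, which couple cadherins to actin, were called as often up as down, 5 higher and 5 lower of 13 tested (76.9% called), with a median change of −0.03. Beta-catenin, Ctnnb1, was higher by 0.35 (SE 0.09), and the broadly expressed alpha-catenin gene Ctnna1 by 0.53 (SE 0.07). The Ctnnb1 call was lost under 5 alternatives, spike-in scaling (0.51, adjusted p = 0.117) among them. The neuronal alpha-catenin Ctnna2 had a change of −1.53 (SE 0.09, limma adjusted p = 0.000102), and p120-catenin, Ctnnd1, of −0.39 (SE 0.08), and Ctnnd1 was not called under spike-in scaling (−0.22). Ctnna2 had 3.61, 3.38, 3.32 and 3.19 in RA (-) spheres, against 4.91, 5.02, 4.87 and 4.80 in RA (+) spheres, far apart. Further members were Pkp2 (−2.58), a desmosomal plakophilin, Arvcf (−1.40), Pkp4 (0.98) and Plekha7 (1.34), which lost its call without animal 1 or 3, at 1.39 each. Pkp2 was well above background on only 1 RA (-) array and changed by −0.88 with normexp and quantile normalization. Plekha7 was well above background on 2 RA (+) arrays and changed by 0.34 with that normalization.

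Nectins are immunoglobulin-type adhesion proteins that join cadherin junctions through afadin. Of the 5 genes tested in this list, the 4 nectins were called lower and afadin (Afdn, 0.37) was not called. The median of the list was −0.72, and 28.4% of all genes were called lower. One of the 4, Nectin4, passed the filter only through its RA (+) arrays. Nectin1 changed by −0.76 (SE 0.13) and Nectin3 by −0.72 (SE 0.14), both not called under spike-in scaling. No RA (-) array held Nectin4 well above background, and it was at least 1.3-fold lower; with normexp and quantile normalization it was −0.17, below this bound in size and not called (adjusted p = 0.0705). Of the other cadherin superfamily, 3 were higher and 4 lower of 13 tested (53.8% called). The planar polarity cadherin Celsr1 (1.51, SE 0.17) and the giant cadherin Fat1 (1.37, SE 0.18) were higher, Fat2 was higher by 0.38 but lost its call under 7 alternatives, and Fat3 (−2.08), the desmosomal cadherin Dsc2 (−1.93) and the synaptic calsyntenin Clstn3 (−0.90) were lower. With normexp and quantile normalization Fat3 changed by −0.35.

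Of 11 tested proteases that cut cadherins, 1 was higher and 3 were lower, 36.4% called beside 64.3% of all genes. Psen2, an alternative catalytic subunit of gamma-secretase, changed by −1.39 (SE 0.18), Adam15 by −1.08 (SE 0.10), Mmp2 by −0.93 (SE 0.10) and Adam9 by 0.50 (SE 0.07). Adam10, the main sheddase of N-cadherin, had a change of 0.03. Among 16 intracellular effectors of protocadherins, 5 were higher and 4 lower (56.2% called), with a median of 0.06. Set (0.83), a phosphatase inhibitor that binds Pcdh7, Taok2 (0.53), the kinase downstream of Pcdh8, and Ptk2 (0.49), the focal adhesion kinase inhibited by clustered protocadherins, were higher. The WAVE complex subunits Cyfip2 (−0.74), Nckap1 (−0.39) and Abi1 (−0.33) were lower, all not called under spike-in scaling, and Nckap1 and Abi1 also not called without animal 1, 2 or 4 (−0.33, −0.38 and −0.33 for Nckap1, −0.35, −0.22 and −0.32 for Abi1).

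Regulators known to act at clustered protocadherin promoters were higher for 11 of 16 tested and lower for 1, with a median of 0.64, beside 35.9% and 28.4% of all genes. Ctcf, the insulator protein that bridges promoter and enhancer, had 2.99, 2.75, 2.76 and 2.69 in RA (-) spheres, against 2.08, 2.07, 1.93 and 2.04 in RA (+) spheres. The groups did not overlap, and the change was 0.77 (SE 0.08, limma adjusted p = 0.000551). The cohesin subunit Rad21 was higher by 0.92 (SE 0.07), the repressor Smchd1, which silences these clusters, by 0.82 (SE 0.08), and the maintenance DNA methyltransferase Dnmt1 by 1.05 (SE 0.08). The lower member was Dnmt3a, a de novo DNA methyltransferase, at −0.92 (SE 0.11). Whether these changes bear on the clustered protocadherins was not tested.

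Transcription factors that bind cadherin promoters were higher for 4 and lower for 1 of 8 tested (62.5% called). Zeb2 (1.96, SE 0.10) and Tcf4 (1.95, SE 0.07), repressors of Cdh1 in other tissues, were higher in all 4 animals. Grhl2 (1.63, SE 0.29), an activator of Cdh1 in epithelia, was well above background on 3 RA (-) arrays and 1 RA (+) array and changed by 0.33 with normexp and quantile normalization. Klf8 (−1.38, SE 0.15) was lower. Snai1 and Snai2 were well above background on none.

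**Figure D5:**
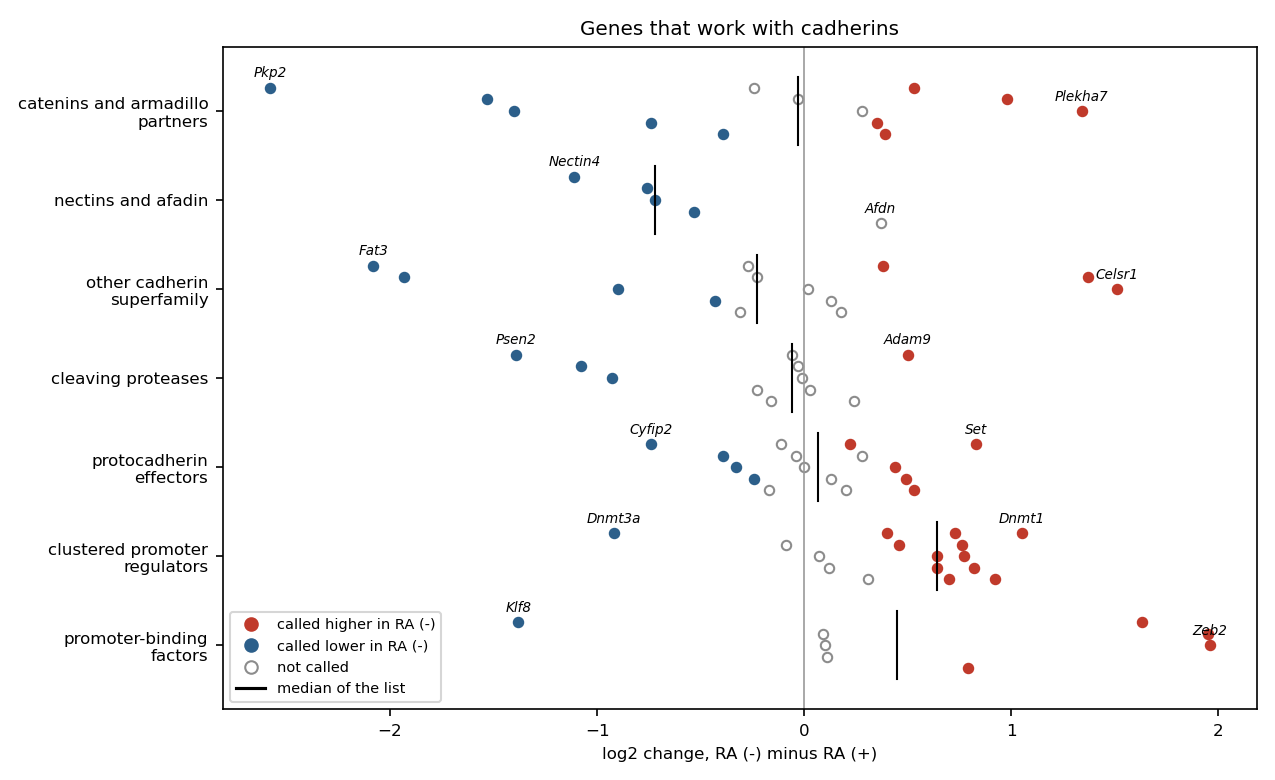
Log2 change in RA (-) against RA (+) spheres (horizontal axis) of the tested genes in 7 lists of genes that work with cadherins, with a bar at each list's median and the lowest and highest gene named. Red points are called higher, blue points called lower and open points not called. Promoter regulators lie mostly right of 0 (11 of 16 higher) and the list of nectins and afadin mostly left (4 of 5 lower).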

How the data were processed

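The 8 arrays, of design 028005, shared 1 slide and 1 scan, and their spots were read by Agilent Feature Extraction 11.5.1.1 on an mm9 annotation, per the file headers. Per the file headers, the deposited processed intensity is background-subtracted and not scaled between arrays. The deposited table of log2 values for 55821 probes was an alternative; each of its columns correlated at 0.9999 or more with the scanner values centred per probe, and the column medians were −0.07, 0.01, 0.17 and 0.20 for RA (-) and −0.23, −0.22, 0.02 and −0.01 for RA (+) arrays 1 to 4. Its centring and direction follow from that match, and its exact scaling is not given in the sources used here. The submitters' flags for spots well above background and outlier spots were used; outliers removed 64 of 55681 probes, and no non-control spot was saturated.

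Log2 of the processed signal minus the array's 75th percentile, which was 294.7, 242.5, 260.7 and 233.9 units on RA (-) and 300.4, 302.3, 228.1 and 298.2 units on RA (+) arrays, was fitted with limma 3.58.1 in R 4.3.3, two-sided, with the animal as a block and Benjamini-Hochberg adjustment over 13539 genes. Names came through accessions and a RefSeq table of GRCm38.p6, which named 27235 probes and left 28446 unnamed; its build differs from the array annotation, so only upstream sequences carry its coordinates. The pairing comes from the series' design text. Deviations of paired arrays from their medium's mean correlated at 0.52, 0.30, 0.19 and 0.33, and each RA (-) array's best match among the RA (+) arrays was its partner. Normexp (offset 50) used the median spot signal, since the mean signal planned for it was not in the files. "At least" bounds set each dim array at the lowest signal of a probe well above background there, or at the gene's own signal where higher. They hold only for the processed signal scaled to the 75th percentile. Probes not well above background can also read above that lowest signal. The fit was tested on simulated data. Array number limits the precision.

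Genes named are the called members with the largest changes (up to 12 each way), the member of each subfamily with the highest mean level, 7 listed cadherins, and the most changed partners; the 3 genes most like Pcdh7 in profile, also planned, are left out because its RA (-) values were at background; other names were chosen after values were seen. The members and lists were chosen with earlier results of these data known. The alternatives were other normalizations and scalings, filters, probe choices and error models, the fit without the block, and leaving out each animal. Some marker genes are not reported here and were left out of the summed levels.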

Additional observations from a re-analysis of the deposited data

Results flagged for a closer look

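In 8 of 92 groups of 4 samples, the highest or lowest array stood apart from the other 3 by more than Dixon's limit at 95% allows, where chance gives about 1 in 20. Among alpha protocadherins, RA (+) animal 2 had a Pcdha4 level of −2.79, with the nearest RA (+) value at −0.37, and a Pcdha12 level of −1.30, with the nearest at −0.42. The RA (-) sphere of the same animal was also the lowest for both genes, at −3.45 and −1.37. Pcdhac2 was 3.98 in RA (+) animal 4, against 4.21 to 4.25 in the others. Among beta protocadherins, Pcdhb20 was 1.1 in RA (+) animal 4, Pcdhb16 was 1.21 in RA (+) animal 2 and Pcdhb5 was −2.39 in RA (+) animal 3, with nearest values of 1.46, 1.42 and −3.19. Pcdh20 was −2.27 in RA (+) animal 1, with the nearest at −2.80. Cdh8 was −2.34 in RA (-) animal 2, with the nearest at −2.13.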

How the results depend on the processing

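All 29 called members kept their direction under the 14 alternatives, and 11 of them, 9 lower and 2 higher, also kept their call under every one. Members called higher, 4 in the analysis as reported, were 2 with the 75th percentile of detected probes, 2 under spike-in scaling, 7 with no filter on dim probes and 2 to 5 when an animal was left out. Members called lower, 25 as reported, were 32 with the 75th percentile of detected probes, 12 under spike-in scaling and 20 to 27 when an animal was left out. Under spike-in scaling 1931 of all genes and 12 partner genes were called lower, against 3841 and 22; without 1 animal these were 3264 to 3600 and 19 to 22, and the higher calls 4050 to 4617 and 26 to 30. Without the replicate block, 3 members were called higher and 20 lower, and all genes gave 4432 and 3572; Cdh13, Cdh22, Cdh6, Pcdhb10, Pcdhb12 and Pcdhb8 lost their call. Reversed values came from other probes, 0.03 for Pcdh10 and −0.29 for Pcdh15. The number of members differing between animals, 0, was 4 under spike-in scaling, with 352 of all genes against 6. The causes were not tested. Over single members, 576 of the values under alternatives stayed on the same side of the threshold, 51 lost a call and 21 gained one. Signal near background limits Pcdh7, Pcdhb9 and Pcdhb11. It also bears on Pcdh8, Pcdhb8 and Pcdhb13, each well above background on 3 RA (-) arrays.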

Other observations

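The comparison between the 4 animals, with the medium taken into account, was chosen after the values were seen. Where limma called 0 of 46 members (17 at an unadjusted p under 0.05), under spike-in scaling 4 members were called, Cdh22, Pcdha11, Pcdha4 and Pcdha9, beside 352 of all 13539 genes, against 6 of all genes in the analysis as reported. As a description, the animal held a median of 72.4% of the sum of squares for the 6 tested alpha genes (5.9% for Pcdhac2), 75.1% for the single gamma gene Pcdhga9, against 25% for the 21 beta genes, 31.3% for all members and 20.4% for all genes. Pcdha4 averaged −0.18, −3.12, −0.74 and −0.34 over both cultures of animals 1 to 4, so that animal 2 was low in both media (adjusted p = 0.2 by limma). Pcdha9 averaged −0.80, −0.94, −2.05 and −1.84, with animals 3 and 4 low. Pcdhb7 was highest in animal 4, which averaged 0.96, with 0.22, 0.07 and 0.25 in animals 1 to 3.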
